A study of Mus musculus with 6 samples.

Results

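The genes described here are 39 mouse genes of pre-mRNA splicing: the heterogeneous nuclear ribonucleoproteins (hnRNPs), the serine/arginine-rich (SR) proteins with the related Tra2 proteins, and a few genes that act on or beside them. They were picked by name after measurements of these same arrays were known, so their differences between the diets are given as a description. Every probe set annotated to exactly 1 gene symbol on the list was taken, which gave 114 probe sets for 36 genes, among 18193 genes named in this way on the array. The other 3 genes have no values here: Hnrnpa3 and Rbm3 appear only on probe sets that also carry the symbol of another gene, and Srsf7 on none that the annotation used here names.

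Both diets were low-protein versions of AIN-93M, a purified maintenance diet for rodents, and were fed for 10 weeks. The control diet, 10C, held 10% casein. The diet 6C+4CP held 6% casein and 4% fish-derived collagen peptide, so less casein and added peptide came together and cannot be told apart. The 6 mice were male BALB/cCrSlc mice aged 17 weeks, 3 per diet, chosen from 12 per diet for a middling ratio of weight gain to food eaten, and sampled in the morning after 3 h without food. RNA came from 1 small piece of liver per mouse and was read on 1 Affymetrix expression array per mouse. According to the design text there were 3 groups, of which the remaining one was not analysed here.

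SR proteins bind exonic sequences of a transcript and help the spliceosome choose nearby splice sites, while many hnRNPs coat introns and exons and hold sites back. The arginine/serine domain of SR proteins is phosphorylated by SRPK kinases in the cytoplasm and CLK kinases in the nucleus. Many of these genes limit their own level: when the protein is abundant, splicing around a highly conserved "poison" exon shifts and the transcript goes to nonsense-mediated decay. In hepatocytes Srsf3 is known to be needed for normal maturation and glucose and lipid metabolism.

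Upstream sequences are shown for 4 genes that the results turn on, namely Gemin2 and 3 whose varying probe sets shared a sign, Srsf6, Srsf3 and Hnrnpr. Each is the 250 bases before the gene's start in RefSeq's GRCm38.p6 annotation, 5′ to 3′ on the gene's plus strand, at chr12:59013141-59013390 for Gemin2, chr2:162931258-162931507 for Srsf6, chr17:29032410-29032659 for Srsf3 and chr4:136310692-136310941 for Hnrnpr. Capitals mark exact matches, on either strand, to the letters of 6 motifs. These were TATAAA for the TATA box, CCAAT for the box bound by NF-Y, GGGCGG for the GC box bound by Sp1 and TGACG for the core of the cAMP response element. The remaining motifs were CACGTG for the E-box and CCGGAAG for sites of ETS factors. No match overlapped another in these sequences.
Gemin2: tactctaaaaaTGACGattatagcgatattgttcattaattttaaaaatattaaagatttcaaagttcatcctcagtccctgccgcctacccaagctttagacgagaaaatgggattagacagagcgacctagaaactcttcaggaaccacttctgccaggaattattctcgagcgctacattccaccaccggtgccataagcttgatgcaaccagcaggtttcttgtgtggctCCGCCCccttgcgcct
Srsf6: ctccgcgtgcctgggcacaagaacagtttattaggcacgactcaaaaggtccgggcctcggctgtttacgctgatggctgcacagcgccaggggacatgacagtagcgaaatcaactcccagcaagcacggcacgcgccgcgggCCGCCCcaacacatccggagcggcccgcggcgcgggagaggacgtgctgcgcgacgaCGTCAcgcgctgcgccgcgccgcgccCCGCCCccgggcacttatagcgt
Srsf3: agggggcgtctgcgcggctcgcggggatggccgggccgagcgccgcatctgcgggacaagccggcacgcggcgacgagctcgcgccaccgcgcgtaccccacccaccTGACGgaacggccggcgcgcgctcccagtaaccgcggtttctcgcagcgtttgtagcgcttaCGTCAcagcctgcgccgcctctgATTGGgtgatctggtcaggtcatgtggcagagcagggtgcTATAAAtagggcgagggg
Hnrnpr: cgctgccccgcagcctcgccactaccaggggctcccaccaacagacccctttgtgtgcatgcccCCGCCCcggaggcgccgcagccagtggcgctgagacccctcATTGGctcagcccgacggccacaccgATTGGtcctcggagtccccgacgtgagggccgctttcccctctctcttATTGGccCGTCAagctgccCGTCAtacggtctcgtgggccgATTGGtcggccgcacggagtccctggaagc

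The Gemin2 sequence held 44.4% G and C, against 68.4% for Srsf6, 69.6% for Srsf3 and 68.8% for Hnrnpr. Among these 4, only Srsf3 had a TATAAA match. Hnrnpr had 4 CCAAT matches, and each of the 4 genes had at least 1 TGACG match. Of the 36 measured genes, 35 were found in the promoter table, and their median G and C content was 63.6%, against 55.2% over 17491 protein-coding genes. A GC box match was present in 27 of the 35 (77.1%), against 42.7% of protein-coding promoters and 32.9% of all 27025 promoters. TGACG was present in 19 (54.3%), against 20.3% and 17.9%, and CCAAT in 17 (48.6%), against 36.3% and 34.5%. TATAAA was found in 3 members, against 12.4% of coding and 13.0% of all promoters. CACGTG was also found in 3, against 6.64% and 6.05%, and CCGGAAG in 7, against 9.12% and 7.05%. The part of base composition in these shares was not tested, and a match is only a description of letters.

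The values are the authors' processed ones on a scale that was read as log2. No source used here names the log base, and every ratio below rests on that reading. In the deposited table most probe sets hold practically 1 value over all arrays. A probe set is called varying here when its 6 values range over more than 0.01. By that rule 65 of the members' 114 probe sets varied (57.0%), against 7791 of 45037 in the whole table (17.3%). The share varying also differed with brightness: among the brightest 25% of the table, which holds 79 of the members' probe sets, 46.9% of all and 70.9% of the members' probe sets varied. In the next 25% 9 of 23 varied (39.1%, against 11.5% of all), while 0 of 8 did in the dimmest 25% and 0 of 4 in the 25% above it (against 4.67% and 6.07% of all). Just inside the limit were a probe set of Srsf11 with a range of 0.017 and one of Tra2a with 0.035, and just outside it one of Ptbp1 with 0.0063.

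Of the 36 measured genes 30 had a varying probe set, and the other 6 were flat: Hnrnpm, Hnrnpu (on all 5 of its probe sets), Hnrnpul1, Srsf9, the cold-inducible Cirbp and the kinase Clk1. A flat value gives no difference and is not evidence that the transcript was unaltered. Each varying gene is read below by its varying probe set of highest mean, and other probe sets are named where they are used. Levels of different probe sets are not compared, because probes differ in how they bind.

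Of these 30 genes 20 had a higher and 10 a lower mean in 6C+4CP than in 10C. The median difference was 0.015 on the log2 scale, against -0.0036 over all 5057 genes with a varying probe set, and 33.3% of the members were lower against 51.9% of those genes. The median size of the difference, whatever its sign, was 0.14 for the members and 0.082 for all. The values of the 3 mice of one diet lay wholly above those of the other for 7 members. Higher in 6C+4CP were 6, namely Gemin2, Srsf6, Hnrnpdl, Srsf4, Clk4 and Hnrnpl, and over all 5057 genes 10.9% separated in that direction. Lower was 1, Hnrnpr, where 8.84% of all genes were. The members were chosen with this contrast in view, so nothing is read from these shares.

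The differences were fitted with limma over all 45037 probe sets. None of the members' 114 probe sets had a Benjamini-Hochberg adjusted p under 0.05, with 0.204, for Gemin2, the lowest. Of all 45037 probe sets 0.242% passed (109), and 103 of those were flat ones whose 6 values differ only in late decimals. In a fit to the varying probe sets alone, 0 passed in the whole table, and the lowest adjusted p among the members was 0.101, shared by probe sets of Gemin2, Hnrnpdl and Srsf6. When each array was instead centred on the median of its varying probe sets, 2.94% of the table passed (1324). Among these were 13 member probe sets, of Gemin2, Hnrnpdl, Hnrnph1, Hnrnpr, Srsf1, Srsf3 and Srsf6. None of the 1324 was flat, and 57.0% of the members' probe sets vary against 17.3% of the table. The 13 is therefore not set against the 2.94%. Such centring shifts every probe set of an array by the same amount, so flat ones take on a small spread. The moderated test draws on the spread of all probe sets, and the part of the shift in these calls was not tested. In all varying probe sets of Hnrnph1, Srsf1 and Srsf3 the diets overlapped.

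**Figure D1:**
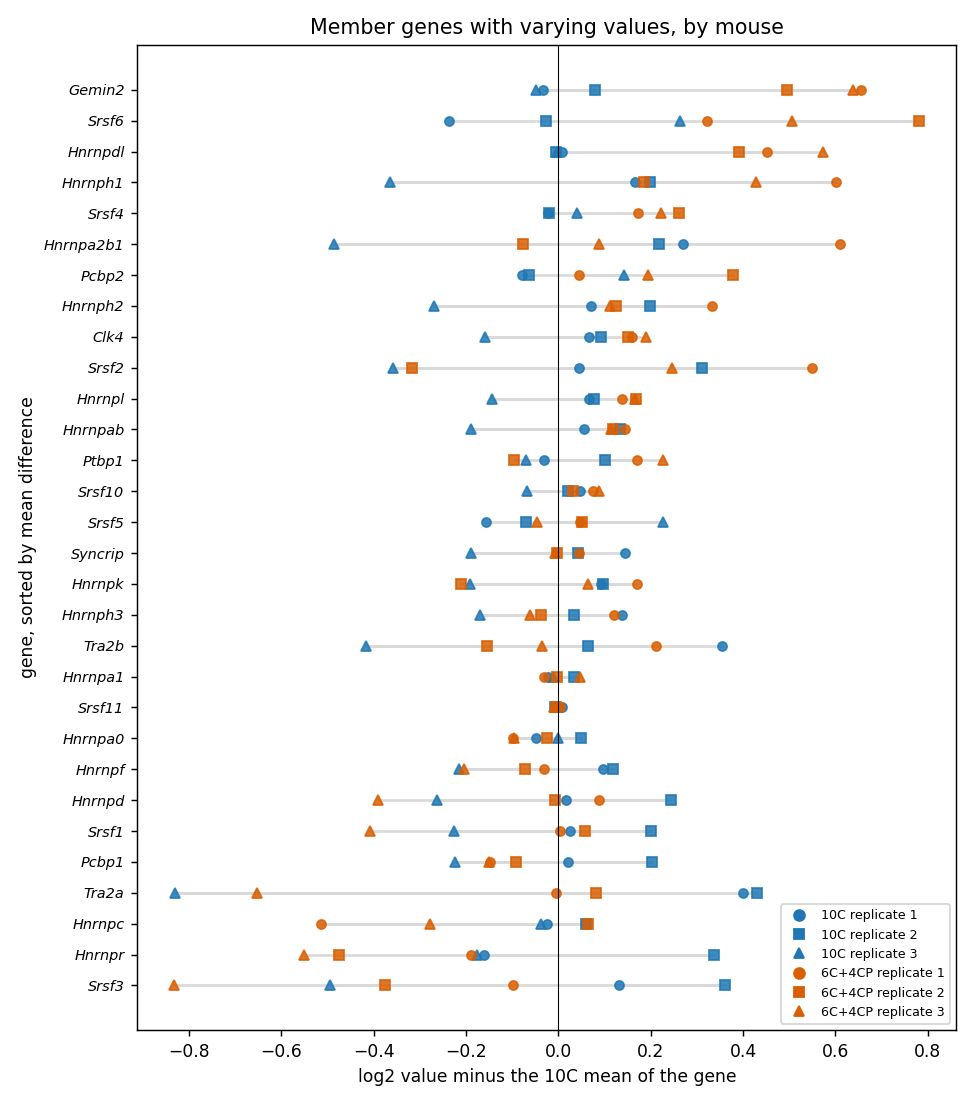
Each row is 1 of the 30 varying member genes and each point 1 mouse (blue 10C, orange 6C+4CP, marker shape by replicate), placed at its log2 value minus the 10C mean of that gene. The diets do not overlap for Gemin2, Srsf6, Hnrnpdl, Srsf4, Clk4, Hnrnpl and Hnrnpr, and 10C replicate 3 (blue triangle) is the leftmost of the 6 mice in 15 rows.

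One control mouse was low in many of the members. The lowest of the 6 mice was 10C replicate 3 in 15 of the 30 genes (50%), against 25.7% of all 5057 genes, and it was the lowest of its own diet in 22 (73.3%), against 46.1%. It was the highest of the 6 in 1 gene (3.33%, against 16.2%). Without it 13 members were higher and 17 lower, where 2296 of all 5057 genes were higher and 2761 lower (54.6%). Without 6C+4CP replicate 1 the members' split was 15 and 15. The members' median difference was -0.012 and -0.0012 in those cases, and 0.085 without either 10C replicate 1 or 6C+4CP replicate 2. Whichever mouse was left out, 18 genes kept their sign, and 12 lost it at least once. Over the varying probe sets 10C replicate 3 correlated with 6C+4CP replicate 2 at 0.985 and with the other 10C mice at 0.971 and 0.973. The cause was not tested.

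**Figure D2:**
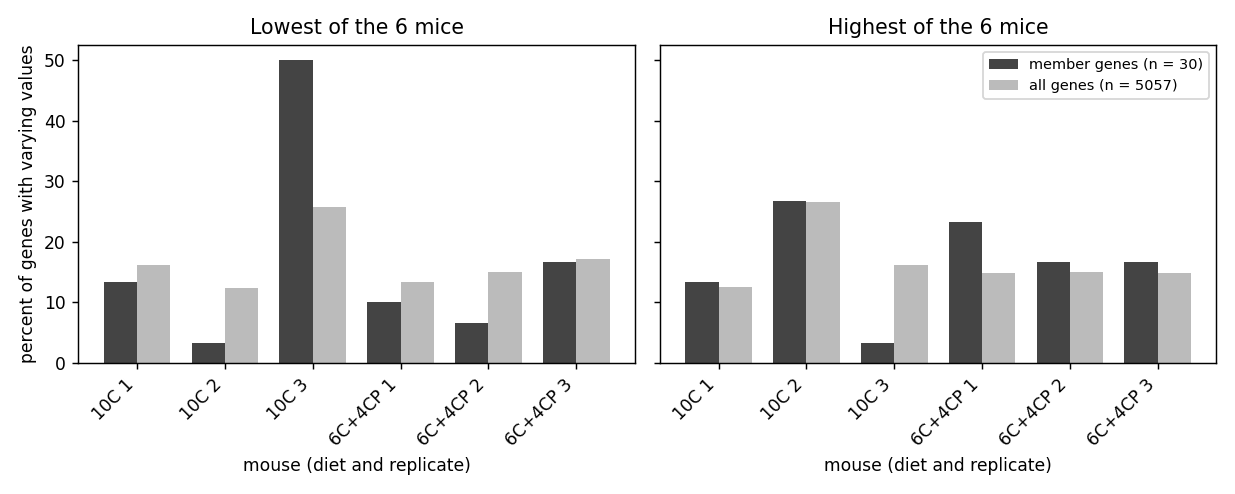
Percent of genes with varying values in which each mouse was the lowest (left) or the highest (right) of the 6, for the 30 member genes (dark) and all 5057 genes (light). The bar for 10C replicate 3 stands at 50% of members on the left, against 25.7% of all genes, and at 3.33% on the right.

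Gemin2 showed the largest difference among the probe sets of highest mean when all 6 mice were used. Without 10C replicate 3 or 6C+4CP replicate 1 both Srsf6 and Srsf3 differed by more, and other Srsf3 probe sets did so with all mice. Its protein binds SMN, and together they load the Sm ring onto the small nuclear RNAs of the spliceosome. Its log2 values were 7.30, 7.41 and 7.29 on 10C, and on 6C+4CP they were 7.99, 7.83 and 7.97. The gap between the lowest 6C+4CP mouse and the highest 10C mouse was wider than the spread within either diet. The mean was 0.60 higher (SE 0.065), a ratio of 1.51, and was still 0.57 higher without 10C replicate 3. Gemin2 has 1 varying probe set, so no other probes check it. The other SMN complex genes were nearly all flat: of 9 measured, only Wdr77, a partner in methylating Sm proteins, varied, with a difference of -0.0013.

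Among the SR proteins 8 of 9 measured genes varied, 5 with higher and 3 with lower means in 6C+4CP (median difference 0.041). Srsf6, an SR protein that acts in both constitutive and alternative splicing, read 9.08, 9.29 and 9.58 in 10C and 9.64, 10.09 and 9.82 in 6C+4CP. The diets did not overlap, although the highest 10C mouse lay close to the lowest 6C+4CP mouse. The mean was 0.54 higher (SE 0.20), a ratio of 1.45. A second Srsf6 probe set had a smaller spread, with 9.32, 9.36 and 9.40 in 10C and 9.66, 9.83 and 9.77 in 6C+4CP. The difference was 0.40 (SE 0.053). Another was 0.29 higher (SE 0.096) and also separated the diets, whereas the last was 0.091 higher (SE 0.059) with overlap. All 4 probe sets of Srsf6 therefore pointed upward and 3 separated the diets.

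Srsf4, a larger SR protein, gave a smaller and tighter difference. It read 8.31, 8.31 and 8.37 in 10C and 8.51, 8.59 and 8.55 in 6C+4CP. The diets were apart and the mean was 0.22 higher (SE 0.033), a ratio of 1.16, from 1 varying probe set.

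Srsf3, the smallest SR protein, which promotes inclusion of its own poison exon, lay on the other side. It read 8.57, 8.80 and 7.94 in 10C and 8.34, 8.06 and 7.61 in 6C+4CP, a mean 0.44 lower (SE 0.33). The diets overlapped, with 10C replicate 3 below 2 of the 6C+4CP mice. All 5 varying probe sets of Srsf3 were lower, by 0.44 to 0.75, and in each of them the diets overlapped and 10C replicate 2 was the highest of the 6 mice. The probe set of largest difference, with 7.24, 7.82 and 6.51 in 10C against 6.61, 6.66 and 6.06 in 6C+4CP, had a difference of -0.75 with an SE of 0.43. The 5 probe sets repeat the same 6 mice, so their common sign adds no replicate. For the probe set of highest mean, the difference was -0.68 when 10C replicate 3 was left out. It was -0.25 when 10C replicate 2 was, and -0.24 when the lowest 6C+4CP mouse was.

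In the other SR genes the diets overlapped. Srsf2, which binds exonic enhancers and also acts in transcription, read 8.71, 8.98 and 8.31 in 10C and 9.21, 8.35 and 8.91 in 6C+4CP. Its mean was 0.16 higher (SE 0.32), but a second probe set was 0.073 lower. The first was 0.019 lower without 10C replicate 3, 0.035 lower without 6C+4CP replicate 1 and 0.40 higher without 6C+4CP replicate 2. Srsf5 read 9.84, 9.93 and 10.22 in 10C and 10.04, 10.05 and 9.95 in 6C+4CP. It differed by 0.017 (SE 0.12) and was the only member for which 10C replicate 3 was the highest of the 6 mice. Srsf1, the founding SR protein, was 0.12 lower (SE 0.19), and its 5 varying probe sets ran from -0.32 to 0.011. With 1 mouse left out, the Srsf1 difference ran from -0.23 to 0.030. Srsf10, a splicing repressor when dephosphorylated, differed by 0.065 and Srsf11 by -0.0034.

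Tra2a and Tra2b are SR-like proteins that bind GAA-rich exonic enhancers. Tra2a read 8.57, 8.60 and 7.34 in 10C and 8.17, 8.25 and 7.52 in 6C+4CP. On this probe set replicate 3 of each diet lay well below the other 2 mice, and the diets overlapped. The mean difference was -0.19 (SE 0.47), which became -0.61 when 10C replicate 3 was left out and 0.038 when the low 6C+4CP mouse was. Other varying probe sets of Tra2a differed by -0.024 and -0.00028. In the former the low 6C+4CP mouse was replicate 2, and in the latter replicate 3 was the highest of each diet. Tra2b differed by 0.0070 (SE 0.25), with a second probe set 0.071 lower, and ran from -0.20 to 0.18 with 1 mouse left out.

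Of the kinases that phosphorylate SR proteins, Clk4 read 7.86, 7.89 and 7.63 in 10C and 7.95, 7.94 and 7.98 in 6C+4CP. The diets were apart but close, and 10C replicate 3 was the low mouse. The mean was 0.17 higher (SE 0.081), a ratio of 1.12, and 0.087 higher without that mouse. A separate list of 10 other kinase and protein transport genes was also read, of which 4 varied. Whether each kinase on it acts on SR proteins was not examined here. Prpf4b, a spliceosome-associated kinase, was 0.54 higher with overlap. Hipk2, a nuclear kinase, was 0.34 higher and did not overlap. Srpk2, a cytoplasmic SR protein kinase, was 0.44 lower without overlap, with 7.75, 8.21 and 7.65 in 10C and 7.49, 7.58 and 7.23 in 6C+4CP. Clk2 differed by 0.0071.

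**Figure D3:**
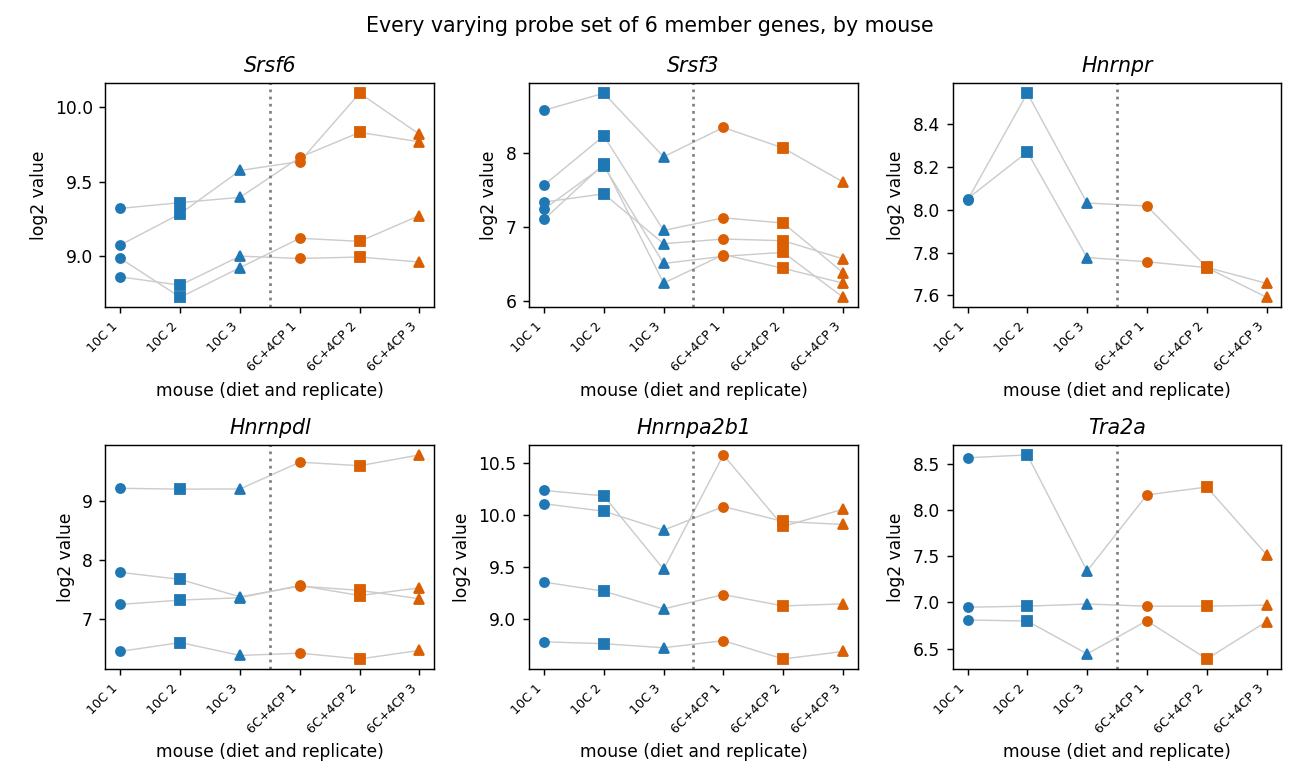
Log2 values of every varying probe set of Srsf6, Srsf3, Hnrnpr, Hnrnpdl, Hnrnpa2b1 and Tra2a in each mouse (blue 10C, orange 6C+4CP), where a grey line joins the points of 1 probe set and carries no order. The 5 Srsf3 probe sets share their high mouse, 10C replicate 2, and only the brightest of the 4 Hnrnpdl probe sets shows the difference of 0.47.

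In the hnRNP A/B and D group all 6 measured genes varied, 4 with higher and 2 with lower means. These abundant proteins bind UAG- or AU-rich RNA and often silence exons. Hnrnpdl, a relative of Hnrnpd, read 9.21, 9.20 and 9.20 in 10C and 9.65, 9.59 and 9.78 in 6C+4CP. The 10C mice were nearly identical and all lay below the 6C+4CP mice, for a difference of 0.47 (SE 0.054) and a ratio of 1.39. Its other probe sets did not all show this: one was 0.19 higher and separated the diets, others were 0.15 and 0.074 lower with overlap, and 3 were flat. The sign of Hnrnpdl therefore depends on which probe set is read.

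Hnrnpa2b1, which also carries RNAs to the cytoplasm, read 10.23, 10.18 and 9.48 in 10C and 10.58, 9.89 and 10.05 in 6C+4CP. Its difference of 0.21 (SE 0.32) rested on 2 mice, since it was -0.035 without the low 10C replicate 3 and 0.0066 without the high 6C+4CP replicate 1. Its other 3 probe sets were lower by 0.024 to 0.071. Hnrnpab was 0.13 higher (SE 0.098), and 0.031 higher without 10C replicate 3. Hnrnpa1, the classic antagonist of Srsf1, differed by 0.0037, Hnrnpa0 by -0.072 and Hnrnpd, which binds AU-rich elements, by -0.10. All 4 of these overlapped between the diets, and Hnrnpd ran from -0.23 to 0.040 with 1 mouse left out.

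The hnRNP F and H proteins bind runs of guanine. Hnrnph1 read 9.53, 9.57 and 9.005 in 10C and 9.97, 9.55 and 9.80 in 6C+4CP. It was 0.41 higher (SE 0.22), a ratio of 1.32, with a small overlap, and 0.22 higher without 10C replicate 3. Its paralog Hnrnph2 read 8.66, 8.79 and 8.32 in 10C and 8.92, 8.71 and 8.70 in 6C+4CP, 0.19 higher (SE 0.16) with overlap, and 0.055 higher without 10C replicate 3. Hnrnph3 differed by 0.0075 and Hnrnpf by -0.10, which became -0.21 without 10C replicate 3 and -0.043 without 10C replicate 2. The paralogs are similar in sequence, and how far their probes share signal was not tested.

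Hnrnpr, an RNA-binding protein related to Syncrip, was the only member whose values lay wholly lower in 6C+4CP. It read 8.04, 8.54 and 8.03 in 10C and 8.02, 7.73 and 7.66 in 6C+4CP. The lowest 10C mouse and the highest 6C+4CP mouse almost touched. The mean was 0.40 lower (SE 0.20), a ratio of 1.32 for 10C over 6C+4CP, and 0.24 lower without 10C replicate 2. A second Hnrnpr probe set read 8.05, 8.27 and 7.78 in 10C and 7.76, 7.73 and 7.59 in 6C+4CP, 0.34 lower (SE 0.15) and again without overlap, while 3 others were flat.

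Hnrnpc, whose tetramer measures out nascent transcripts, read 10.66, 10.74 and 10.64 in 10C and 10.17, 10.74 and 10.40 in 6C+4CP. The 10C mice were close together and 6C+4CP replicate 2 matched the highest of them, while the other 6C+4CP mice lay below. The mean was 0.24 lower (SE 0.17), and 0.11 lower without 6C+4CP replicate 1. Hnrnpl, which binds CA repeats, read 7.64, 7.65 and 7.43 in 10C and 7.71, 7.74 and 7.74 in 6C+4CP. It was 0.16 higher (SE 0.072) without overlap, and 0.085 higher without 10C replicate 3. Syncrip differed by 0.012.

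Among the poly(C) and polypyrimidine tract binding proteins Pcbp2, which stabilises and regulates many mRNAs, read 9.98, 9.99 and 10.20 in 10C and 10.10, 10.43 and 10.25 in 6C+4CP. It was 0.21 higher (SE 0.12), and a second probe set was 0.20 higher (SE 0.099), both with overlap. The first was 0.12 higher without 6C+4CP replicate 2. Pcbp1 was 0.13 lower (SE 0.12), Ptbp1, a repressor of many exons, was 0.10 higher (SE 0.11) and Hnrnpk differed by 0.0083, each with overlap. With 1 mouse left out, Pcbp1 ran from -0.24 to -0.029, furthest from 0 without 10C replicate 3 and nearest without 10C replicate 2. Ptbp1 ran from 0.037 without 6C+4CP replicate 3 to 0.20 without 6C+4CP replicate 2. Over all groups 23 of the 30 genes overlapped between the diets, 14 with higher and 9 with lower means, from -0.44 to 0.41.

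Probe sets of the same gene did not always point the same way. Of 16 members with at least 2 varying probe sets, 9 had one sign throughout (56.3%), against 840 of 1191 genes in the whole table (70.5%). A shared sign is harder to reach with more probe sets, and the shares were not matched for their number, so they are not compared further. The 9 were Srsf6, Pcbp2, Syncrip and Hnrnpk, with positive differences, and Srsf3, Hnrnpr, Hnrnpc, Tra2a and Srsf11, with negative ones. Several of those are common in sign only: in Hnrnpk all 3 probe sets lay between 0.0083 and 0.037. The other 7 were mixed: Hnrnpdl, with the widest spread at 0.62, then Srsf1, Hnrnpa2b1, Srsf2, Hnrnpab, Hnrnpf and Tra2b. Counted by probe set, 32 varying probe sets were higher and 33 lower. When each gene was read by the mean of its varying probe sets, 19 genes were higher and 11 lower.

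**Figure D4:**
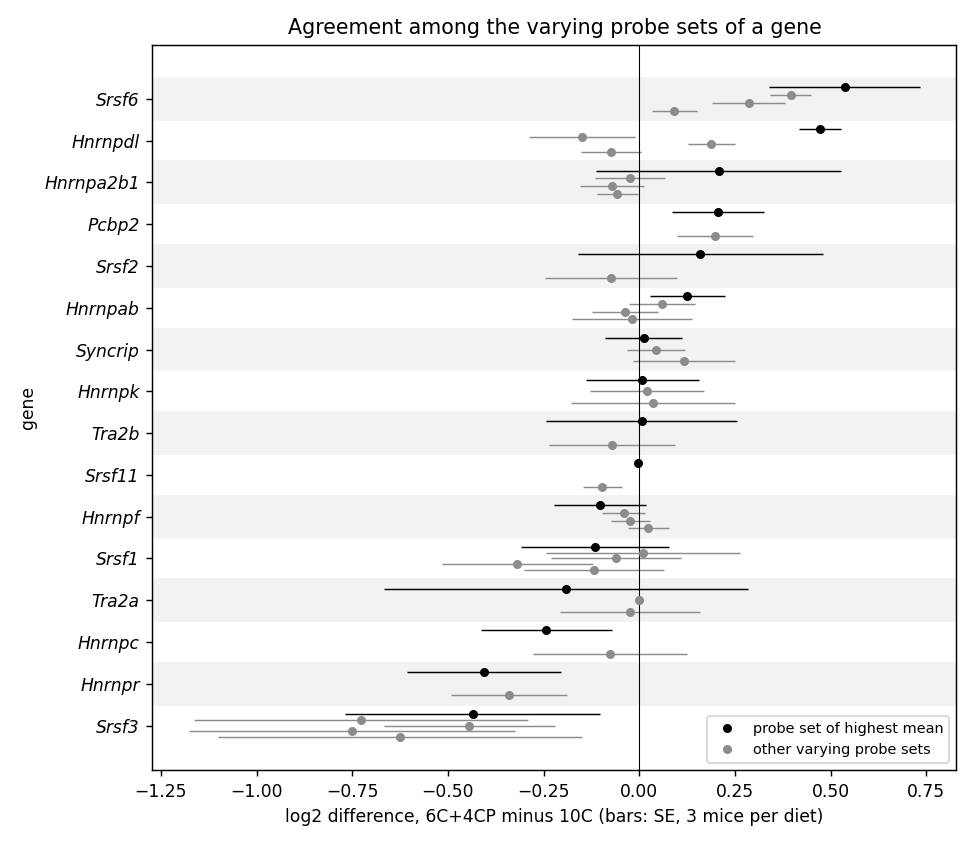
Differences in mean log2 value, 6C+4CP minus 10C, for each varying probe set of the 16 members with 2 or more, black for the probe set of highest mean and grey for the others, with bars of 1 SE over 3 mice per diet. The Srsf6 points all lie right of 0 and the Srsf3 and Hnrnpr points all left of it, whereas those of Hnrnpdl run from -0.15 to 0.47.

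The wider splicing machinery was read from lists of other genes. Of 46 core spliceosome genes 43 were measured and 19 varied, 6 with higher and 13 with lower means in 6C+4CP (median difference -0.053). Prpf6, a bridge between snRNPs of the tri-snRNP, read 8.73, 8.63 and 8.42 in 10C and 7.83, 7.97 and 8.02 in 6C+4CP, 0.65 lower without overlap. Snrpd3, a Sm ring protein, and the helicase Snrnp200 were each 0.24 lower with overlap, while Sf3b1, which contacts the branch site, was 0.14 higher without overlap. Without 10C replicate 3 the split was 4 higher and 15 lower (78.9%, against 54.6% of all genes), with a median of -0.13 (all genes -0.0090). One core spliceosome probe set, a flat one of Sf3b2, passed limma's adjusted threshold, with no difference that could be read.

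Of 40 other RNA-binding regulators of splicing 37 were measured and 30 varied, 16 with higher and 14 with lower means (median 0.0046). Celf2, a CUG-binding regulator, was 0.59 higher without overlap, with 7.69, 7.70 and 7.29 in 10C and 8.38, 7.76 and 8.32 in 6C+4CP. Srrm2, a large scaffold of nuclear speckles, was 0.13 higher without overlap, Ewsr1 was 0.25 lower without overlap and Qk differed by 0.017. Without 10C replicate 3 the split was 10 higher and 20 lower (66.7%, against 54.6% of all genes). In the decay pathway that removes poison-exon transcripts 10 genes were measured and 2 varied: Upf2, an essential factor of the pathway, was 0.24 higher without overlap, and Rbm8a, of the exon junction complex, differed by 0.020.

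**Figure D5:**
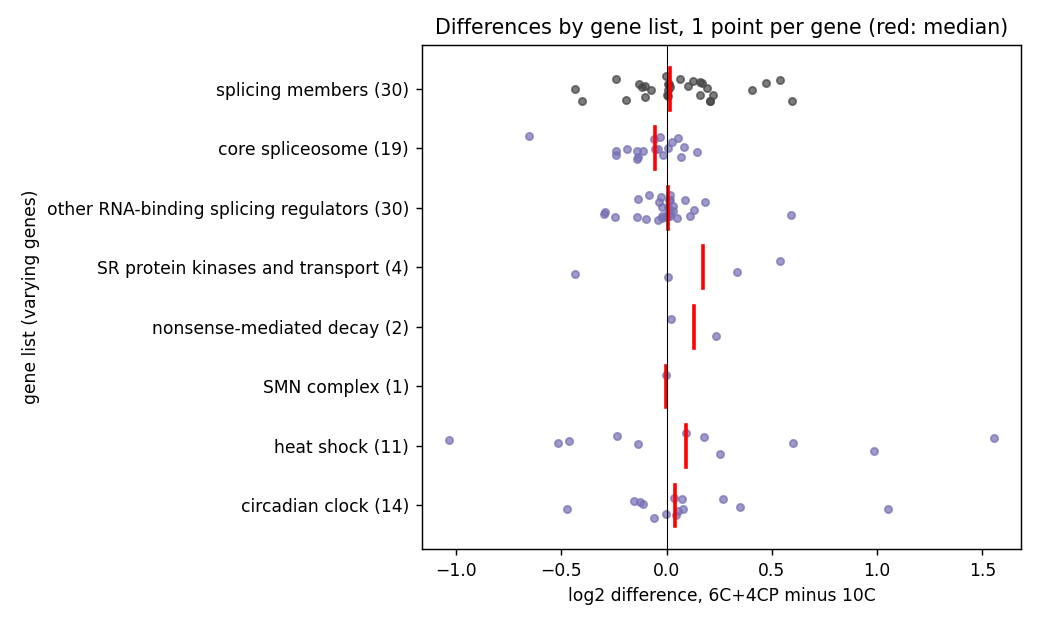
Differences in log2 value, 6C+4CP minus 10C, with 1 point per varying gene for the splicing members and for 7 other gene lists, and the median of each list in red. The members' median is 0.015 and that of the core spliceosome -0.053, and the points of every list with more than 2 genes fall on both sides of 0.

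The arrays read as liver, with the hepatocyte genes Apoa1 and Ttr at 13.67 to 13.93 in a table whose highest value is 14.48. Apoa1, which makes the main protein of high-density lipoprotein, was 0.11 lower in 6C+4CP and the urea cycle gene Cps1 0.27 lower, both without overlap. Ttr, which carries thyroid hormone and retinol-binding protein, was 0.032 higher without overlap, and the tyrosine-degrading enzyme Tat 0.47 higher with overlap. The sum of the hepatocyte list was 66.0 to 67.1 in 10C and 66.1 to 67.2 in 6C+4CP. In bulk tissue fewer cells of a type and less RNA per cell cannot be told apart. Of 9 Kupffer cell and macrophage markers 7 varied, 6 of them lower in 6C+4CP with overlap, and the summed log2 value of the list was 70.7 to 73.7 in 10C and 69.5 to 72.8 in 6C+4CP. The B cell gene Ighm was 0.66 lower without overlap (list sum 26.9 to 27.5 against 26.5 to 26.7), and cholangiocyte, T or NK cell and neutrophil markers were flat. Of 5 varying stellate cell markers 2 were higher and 3 lower, with Colec11 0.26 higher, and the erythroid gene Alas2 was 0.13 higher, all with overlap. The 3′ minus 5′ signal of the actin control, which widens as RNA breaks, was 1.69 in 6C+4CP replicate 2 and 1.15 to 1.27 in the other mice. The Gapdh control set the same mouse apart, at 0.62 against 0.18 to 0.31. An exact two-sided permutation test between the diets gave p = 0.8 for the actin control and p = 1 for the Gapdh control, where 3 against 3 mice cannot go below 0.1. The part of these markers and controls in the members' values was not tested.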

How the data were processed

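Total RNA from 1 liver piece per mouse was labelled and hybridised, per the labels' protocols, to 1 array each. The deposited table holds the authors' processed log2-like values, used as given. R 2.7.2 is named in the submitters' processing notes, but how background was corrected, how probes were summarised and which log base applies is not stated in what was used here. The array medians ran from 6.306 to 6.308, and precision rests on 3 mice per diet. After 64 controls were left out, 45037 probe sets remained, of which the platform annotation gave 34945 a single symbol, 932 several and 9160 none. Samples were grouped by title. A linear model without covariates was fitted to each probe set by limma (version 3.58.1, under R 4.3.3), with moderated tests and Benjamini-Hochberg adjustment (threshold 0.05), tested on simulated data, and control ratios by exact permutation. Standard errors are those of the difference between the 2 diet means, each of 3 mice.

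The members, lists and tests were chosen with earlier results of these data known. Members read in every mouse were the 12 with the largest difference plus Clk4 and Srsf5, and every other list gave up to 4 varying genes of smallest limma p. Srsf2, Hnrnpl, the clock genes Dbp and Nr1d2 and the heat shock genes Hspb1, Hspa1b, Hspa1a and Dnajb1 were added with their values known. Counts and medians of the other lists without 10C replicate 3 were chosen after seeing the data. Alternatives were other scalings, fits, range limits, probe set rules, a replicate block and leaving out each mouse. Promoter sequences are RefSeq's.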

Additional observations from a re-analysis of the deposited data

How the results depend on the processing

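Under the alternatives the call count over the members was 0 except in these cases. It was 13 when arrays were centred on their varying probe sets, with 1324 probe sets called in the whole table, none of them flat, in place of 109. It was 0 to 1 when 1 mouse was left out (a flat Tra2b probe set without 10C replicate 3, and Hnrnpdl without 6C+4CP replicate 3). Those fits called 285 to 398 in the whole table, of which 277 to 388 were flat ones that differ only in late decimals. Leaving out 1 mouse gave 9 to 17 lower and 13 to 21 higher member genes. Quantile normalization left 1 call in the whole table, on a flat probe set, an intensity trend with robust estimation 0, and the fit to varying probe sets 0. With the replicate block the members had 0 calls, and 3 probe sets were called over all, each of them flat. Deviations of same-numbered mice correlated at 0.48, -0.089 and 0.085, and those of mice with differing numbers at -0.57 to 0.40. With 3 mice per diet these values cannot decide whether the replicate numbers pair the mice. The replicate block and the trend with robust estimation could not alter a mean difference in this balanced design. The stricter range limit and the reading by highest mean, varying or not, left all 14 named genes unchanged. With those settings counted, 194 of 196 alternative values for the 14 genes stayed the same or moved by less than the spread between mice. Among them 6, in Tra2a, Srsf5 and Hnrnpa2b1, changed sign. The 2 values that moved further were Hnrnpdl at 0.11 by the mean of its varying probe sets and Srsf6 at 0.29. The latter came from leaving out probe sets whose names end in _x_at or _s_at, while those ending in _a_at were kept. The cause was not tested. Signal over background is not given with these values, so the reliability of dim probe sets is unknown.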

Other observations

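Heat shock genes, which encode chaperones and their partners, varied widely between mice. Of 12 measured, 11 varied, 6 with higher and 5 with lower means in 6C+4CP, and none separated the diets. The chaperone Hsp90aa1 was 0.47 lower, Hspa4l 0.52 lower and Hsph1 0.23 lower, whereas the co-chaperone Bag3 was 0.25 higher. The list ran from -1.03 for Hspb1 to 1.56 for Hspa1b, with Hspa1a 0.98 and Dnajb1 0.60 higher. Its median was 0.092, and without 10C replicate 3 it was -0.061 (all genes -0.0090).

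Of 18 measured circadian clock genes 14 varied, 8 with higher and 6 with lower means. Tef, a clock output factor, was 0.27 higher without overlap, with 9.49, 9.60 and 9.45 in 10C and 9.87, 9.69 and 9.77 in 6C+4CP. Arntl, the partner of Clock, read 6.37, 6.59 and 7.40 in 10C and 5.92, 6.74 and 6.29 in 6C+4CP, 0.47 lower with overlap, and 10C replicate 3 was the high mouse. Clock differed by 0.076 and Ciart by 0.056. The list ran from -0.47 to 1.05, with the output factor Dbp at the top and the repressor Nr1d2 at 0.35.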
